A study of Mus musculus with 2 samples.

Results

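Aminoacyl-tRNA synthetases are the enzymes that join each amino acid to its tRNA, and 36 of their genes were examined here, 20 for cytosolic enzymes and 16 for mitochondrial ones, whose symbols end in 2. The members were chosen by name, and every probe set annotated to exactly 1 of them was taken from the deposited table. Of the 36 genes, 35 had such a probe set (72 probe sets in all), out of 18194 genes in the table. Dars, the cytosolic aspartate enzyme, had none and is not analysed here. Each gene was represented by the probe set whose mean log2 signal was highest.

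The cells were peritoneal macrophages elicited with 10% thioglycolate, an irritant medium that draws them into the mouse peritoneal cavity, from 8-week-old male wild-type C57BL6 mice. They were grown in medium with 10% serum to 80% confluence. The control sample then received no addition for 12 h and the other sample received 100 ng/ml CSF1 for the same time. CSF1 is a growth factor that, through its receptor Csf1r, keeps macrophages alive and dividing. Affymetrix Mouse Genome 430 2.0 arrays measured the RNA of 1 sample of each kind, and the question was how the samples differ after CSF1. With 1 array per group no test can be run, the number of arrays limits the precision, and the labels do not say how many mice gave the cells or whether both samples came from the same mice.

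Translation in the cytosol and in mitochondria uses largely separate sets of synthetases, all encoded in the nucleus. Gars and Kars serve both compartments from a single gene, and mitochondria charge the glutamine tRNA indirectly, through glutamate and an amidotransferase. In mammalian cells several cytosolic synthetases sit together in a multi-synthetase complex held by scaffold proteins. Many cytosolic synthetase genes are also targets of ATF4, the transcription factor of the amino acid response, which is translated when uncharged tRNA activates the kinase Gcn2. The 11 called ATF4 targets here (Aars, Cars, Eprs, Gars, Iars, Mars, Nars, Sars, Tars, Wars and Yars) were listed from general knowledge, and other synthetases may be targets too. Growth factors raise protein synthesis in macrophages, and with it the demand for charged tRNA.

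Signals are the authors' intensity values in linear units. A background level of 147.7 units was taken from 131 probe sets of genes of unrelated tissues, and genes that exceeded it on 1 array or both are called measured. This held for 10802 genes, whose median log2 ratio of CSF1 over control was 0.00, with the middle 50% between -0.21 and 0.22. As error, the SD is given between probe sets of a gene that passed background on each array. It covers neither cultures nor animals and was 0.29 when pooled over 3718 genes. The log2 ratio averaged -0.29 ± 0.13 over 18 probe sets of the hybridisation spikes (SD between probe sets). Centring the arrays on the spikes would put the median of measured genes at 0.28. Directions given here are therefore relative to other genes under the authors' scaling, and with that centring the medians given below as under 0 would lie above it. For Gapdh the 3' signal divided by the 5' signal was 1.03 without CSF1 and 1.40 with it, and for Actb 1.35 and 1.38. The part of this sign of RNA quality in the results was not tested.

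All 8 macrophage markers were above background, with 7 of 8 below 0, where 49.8% of measured genes were. Their summed signal was 142448 units without CSF1 and 116729 units with it. The median log2 ratio was -0.28 under the authors' scaling, -0.11 after quantile normalization and -0.20 after loess correction. Centred on the spikes it was 0.02, with 4 of 8 above 0. Csf1r itself stood at 23704 and 18697 units. Fibroblast markers were also present, in a list that includes mesothelial genes. Of its 9 genes 7 were measured and all 7 had a ratio above 0, where 50.2% of measured genes did. The summed signal was 51204 and 64756 units. Over 2 probe sets each, Col1a1 averaged -0.06 ± 0.26 and Pdgfra -0.13 ± 0.63, while Col1a2 averaged 0.20 ± 0.03 and Col3a1 0.58 ± 0.27. The mesothelial gene Upk3b passed background on the CSF1 array only, with 30.6 and 161 units. The mesothelial genes Msln and Krt19 were below background on both arrays and no marker was at 0. T and NK cell markers had 6 of 7 measured members below 0 and summed to 7870 and 3688 units. Most of that fall came from Gzmb, at 4266 and 1543 units, and Gzma, at 1554 and 472 units. Log2 ratios were -0.04 for both Cd3g and Cd2, 0.35 for Cd3d and -0.14 for Nkg7. Zap70 was at -1.61, with -0.81 ± 1.14 over 2 probe sets. In bulk samples, fewer cells of a type and less RNA per cell cannot be told apart, and the part of these markers in the ratios below was not tested.

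Most cytosolic synthetases were slightly higher on the CSF1 array, and the mitochondrial ones went both ways. All 19 cytosolic genes with a probe set were above background on both arrays, and 16 of them had a log2 ratio above 0 and 3 below, where 50.2% and 49.8% of measured genes did. Their median was 0.16, or 1.12-fold, with a range from -0.15 to 0.71. Of the 16 mitochondrial genes 13 were measured, 6 above 0 and 7 below, with a median of -0.02 and a range from -0.83 to 0.47. The difference between the medians, cytosolic minus mitochondrial, was 0.18. The groups overlap, since every cytosolic ratio except that of Vars lies inside the mitochondrial range, and the pooled SD between probe sets of a member was 0.28. The SD over genes was 0.19 for the cytosolic and 0.40 for the mitochondrial enzymes. None of the 32 measured members was past 2-fold, which 0.898% of measured genes exceeded upwards and 0.657% downwards. In the middle 50% of all measured genes lay 12 cytosolic and 4 mitochondrial members. Another 7 cytosolic members lay above it and 0 below, against 4 and 5 of the mitochondrial ones.

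**Figure D1:**
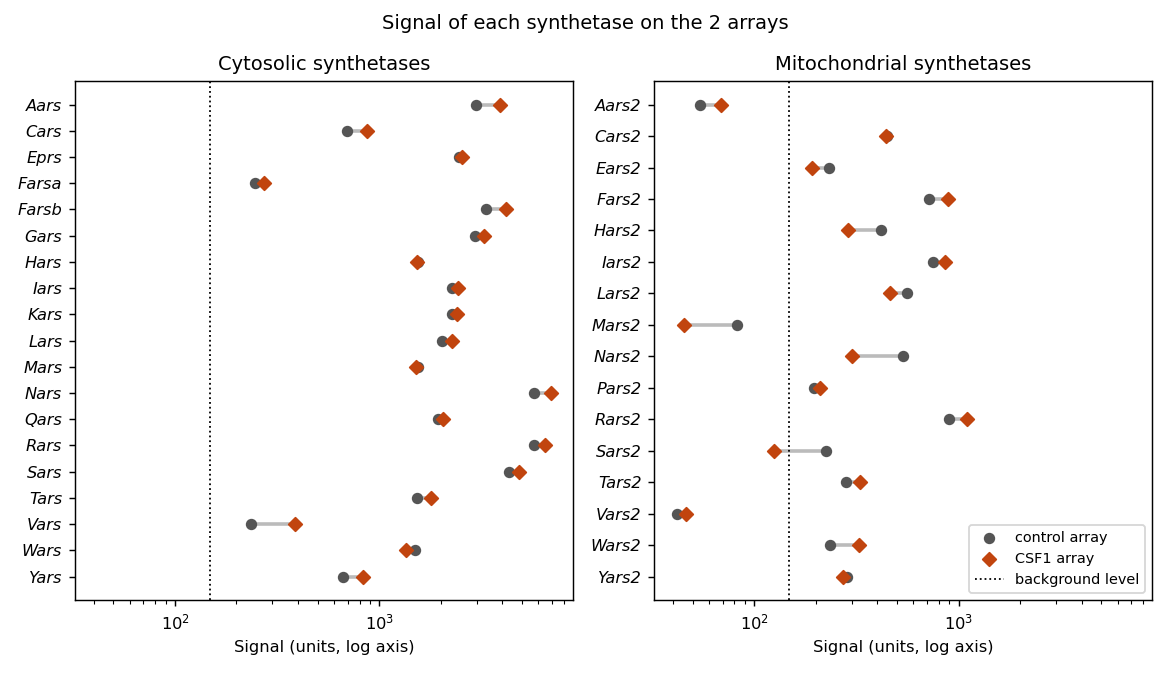
Signal of each of the 35 synthetases on the control array (grey circle) and the CSF1 array (orange diamond), from its brightest probe set, on a log axis in linear signal units. The dotted line is the background level of 147.7 units. The cytosolic pairs lie close together and mostly with the CSF1 array to the right, while Aars2, Mars2 and Vars2 lie below background on both arrays.

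Among the cytosolic enzymes of the ATF4-target group, the promoters of 5 carry a short match to the amino acid response element. This is the site at which ATF4 binds with a C/EBP partner, searched as TGATGNAA on either strand in 300 bases, from 250 before to 50 after the gene's start (RefSeq, GRCm38.p6). The table held promoters of 27 members. The match was found in 3.97% of all 32851 promoters, in 5 of 13 cytosolic members and in 0 of 14 mitochondrial members. The 5 were Aars, Gars, Iars, Tars and Yars, all among the 8 ATF4-target synthetases with a promoter in the table. CACGTG, the E-box that MYC and other factors bind, was in 7.15% of all promoters, in 4 of 13 cytosolic members (Aars, Farsb, Iars and Tars) and in 1 of 14 mitochondrial ones (Ears2). The windows below show the matches that lie before the start, in capitals, since they lie in promoters of some of the cytosolic members described next. Each is written 5′ to 3′ on the gene's strand.
Aars, chr8:111033676-111033757, plus strand, E-box then response element: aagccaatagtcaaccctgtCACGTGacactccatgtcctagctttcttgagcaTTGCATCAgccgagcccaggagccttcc
Tars, chr15:11399659-11399693, minus strand, response element: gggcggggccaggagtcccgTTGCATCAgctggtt
Gars, chr6:55037951-55037998, plus strand, response element: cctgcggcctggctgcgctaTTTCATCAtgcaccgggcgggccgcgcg
Iars, chr13:49682041-49682086, plus strand, E-box: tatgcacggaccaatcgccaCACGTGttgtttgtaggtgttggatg
Farsb, chr1:78488911-78488956, minus strand, E-box: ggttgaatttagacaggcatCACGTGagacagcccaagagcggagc

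In Iars and Yars the response element match lies after the start, as does a second one in Aars and the E-box of Tars and Ears2. The 5 cytosolic genes with a response element match had log2 ratios from 0.10 to 0.40, with a median of 0.23, and all 5 were above 0. The 7 measured cytosolic genes whose promoter lacked it ran from -0.03 to 0.32, with a median of 0.09 and 6 above 0. Split by the E-box instead, the 4 cytosolic genes with it ran from 0.10 to 0.40, with a median of 0.28 and 4 above 0. The 8 without it ran from -0.03 to 0.32, with a median of 0.11 and 7 above 0. In each split the ranges overlap. Aars, Iars and Tars carry both matches, so these ratios cannot separate the sites. A match is a description of these letters and not evidence of binding.

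The highest ratio of the whole group was that of Vars, the valine enzyme. Its only probe set gave 237 units without CSF1 and 388 units with it, 1.64-fold higher. It was the 1 member at least 1.5-fold higher, a size that 5.69% of measured genes reached. Of all measured genes, 3.27% had a higher ratio than Vars.

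Aars, the alanine enzyme, had the next highest ratio among the cytosolic members, with 2965 units without CSF1 and 3899 units with it, 1.32-fold higher. Its 2 probe sets averaged 0.33 ± 0.09 on the log2 scale (SD between probe sets). Both therefore pointed the same way with similar size. Farsb, the beta subunit of the phenylalanine enzyme, stood at 3325 and 4159 units, a log2 ratio of 0.32, and its 4 probe sets averaged 0.24 ± 0.06. Farsa, the alpha subunit, was at 247 and 272 units, and its 2 measured probe sets had ratios of opposite sign, averaging 0.01 ± 0.18. The subunits work as 1 enzyme, but the Farsa ratio of 0.14 on the brightest probe set is within the disagreement of its probe sets.

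Yars, the tyrosine enzyme, was at 668 units without CSF1 and 834 units with it, a log2 ratio of 0.32 on its single probe set. Cars, the cysteine enzyme, was at 697 and 867 units, likewise at 0.32. Nars, the asparagine enzyme, was at 5686 and 6888 units, 1.21-fold higher, and its 2 probe sets had log2 ratios that agreed at 0.28. For Tars, the threonine enzyme, the values were 1530 and 1795 units, 1.17-fold higher on 1 probe set. Together with Vars, Aars and Farsb, these genes are the 7 cytosolic members above the middle 50% of measured genes.

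Sars, which charges serine, was at 4320 units without CSF1 and 4818 units with it, with a log2 ratio of 0.16 and an average of 0.26 ± 0.15 over 2 probe sets. Gars, the glycine enzyme of both compartments, was at 2931 and 3270 units, a log2 ratio of 0.16. Both ratios equal the median of the cytosolic members to 2 decimals. Hars, the histidine enzyme, was at 1552 and 1537 units, a log2 ratio of -0.01, with an average of 0.01 ± 0.03 over its 2 probe sets.

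Wars, the tryptophan enzyme, was the cytosolic member with the lowest ratio, which only centring on the spikes put above 0 (0.15). It stood at 1494 units without CSF1 and 1348 units with it, 1.11-fold lower, and all 4 of its probe sets were below 0, averaging -0.23 ± 0.13. Wars is an interferon-inducible gene. A list of interferon-induced genes had 13 of 15 measured members above 0 and a median of 0.28, so Wars and that list stood on opposite sides of 0. The list's largest ratios were those of the chemokine genes Cxcl9 at 2.83-fold and Cxcl10 at 2.15-fold higher, and of the antiviral gene Ifit3 at 1.69-fold. The antiviral GTPase gene Mx1 exceeded background with CSF1 only and was at least 1.62-fold higher.

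The enzymes of the multi-synthetase complex were close together. Of its 8 synthetases 7 were measured, with log2 ratios from -0.03 to 0.17, a median of 0.09 and an SD over genes of 0.07. On the brightest probe sets none reached a log2 ratio of 0.322 in either direction, which 16.7% of measured genes did upwards and 15.5% downwards. A less bright probe set of Qars did, at 0.325. These 7 genes had bright signals, of 1545 units or more on the control array. Among the 2701 brightest measured genes, at 1282 units or more there, 248 reached that size upwards and 204 downwards, a smaller share each way. The SD over those genes was 0.26, against 0.37 over all measured genes. The 12 cytosolic enzymes outside it had a median of 0.25 and ran from -0.15 to 0.71, and the ranges overlap.

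Within the complex, Rars, the arginine enzyme, was at 5730 units without CSF1 and 6455 units with it, a log2 ratio of 0.17. Lars, the leucine enzyme, was at 2022 and 2264 units, a log2 ratio of 0.16. Iars, the isoleucine enzyme, was at 2271 and 2438 units, at 0.10, with 0.15 ± 0.07 over 2 probe sets. Kars, the lysine enzyme that also serves mitochondria, was at 2269 and 2411 units, a log2 ratio of 0.09. All 4 were slightly higher on the CSF1 array. Qars, the glutamine enzyme, was at 1930 and 2043 units, at 0.08, but its 3 measured probe sets disagreed in sign and averaged 0.09 ± 0.22. Eprs, the fused enzyme for glutamate and proline, was at 2457 and 2551 units, a log2 ratio of 0.05, with 0.01 ± 0.06 over 3 probe sets. Mars, the methionine enzyme listed as Mars1, was at 1545 and 1511 units, a log2 ratio of -0.03. For Qars and Eprs the ratio is within the spread between probe sets, and those of Rars, Lars, Kars and Mars rest on 1 probe set each.

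On the brightest probe sets, the scaffold proteins of the complex had larger ratios than any of its measured enzymes. Eef1e1, also called AIMP3, was at 2594 units without CSF1 and 3725 units with it, 1.44-fold higher. Aimp2 was at 1375 and 1946 units, 1.42-fold higher, with 0.32 ± 0.26 over 2 probe sets. Aimp1 was at 1878 and 2148 units, 1.14-fold higher, a log2 ratio of 0.19. Less bright probe sets of the enzyme genes Qars and Iars exceeded that, at 0.32 and 0.21. All 3 scaffold genes were above 0, and their median was 0.50.

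Medians were alike between the enzyme classes and between the ATF4-target group and the others. Class I and class II synthetases differ in the fold of the catalytic domain, and with Eprs, which joins both, left out, the 9 measured genes of each class had a median of 0.16. The 11 ATF4-target synthetases had a median of 0.16 and the 8 other measured cytosolic ones 0.15.

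**Figure D2:**
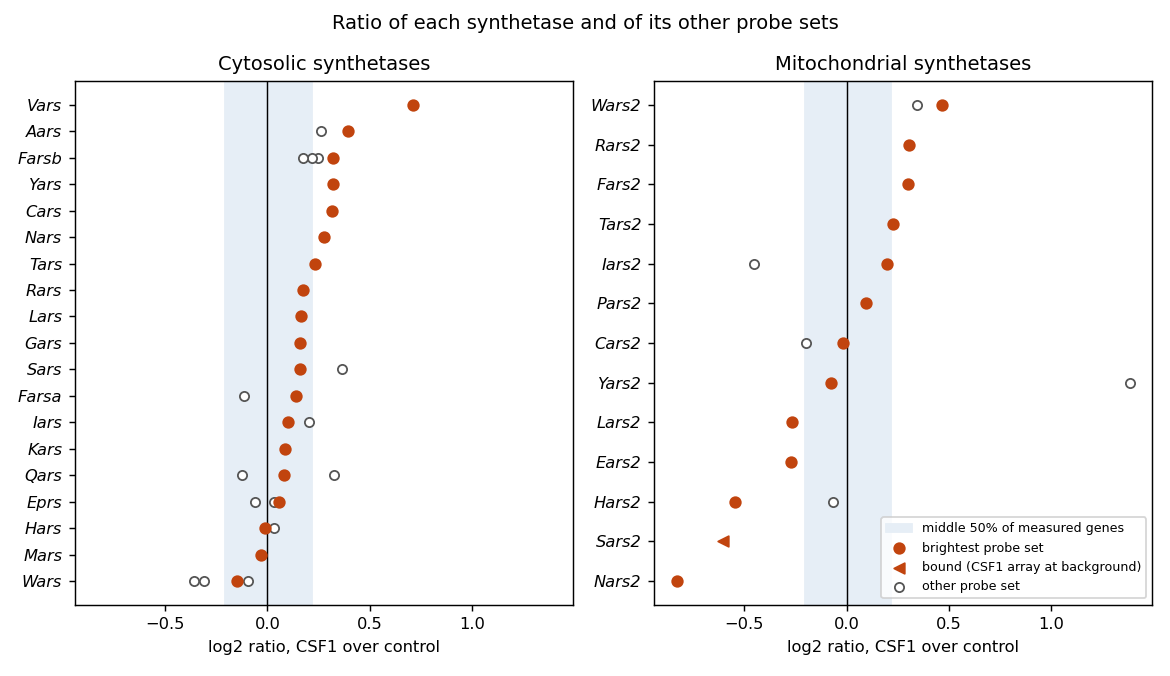
The log2 ratio of CSF1 over control for each measured synthetase, in order of the brightest probe set (orange), with the other probe sets above background on both arrays as open circles. The shaded band is the middle 50% of the 10802 measured genes, and the triangle is a bound for Sars2. The cytosolic points form a narrow column mostly right of 0, and the mitochondrial points spread from -0.83 to 0.47, with a probe set of Yars2 at 1.38.

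Among the mitochondrial synthetases the lowest ratio was that of Nars2, the asparagine enzyme. It was at 534 units without CSF1 and 300 units with it, 1.78-fold lower, and its other probe set was below background on both arrays. Sars2, the serine enzyme, was at 224 units on the control array and at background on the CSF1 array, at least 1.52-fold lower. With a stricter background of 193.8 units, at the 95th percentile, the bound of Sars2 was -0.21 on the log2 scale. Nars2 and Sars2 were the 2 members at least 1.5-fold lower, a size reached by 5.13% of measured genes. Hars2, the histidine enzyme, was at 419 and 287 units, 1.46-fold lower, but at -0.07 on its other probe set, so the probe sets averaged -0.31 ± 0.34.

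Lars2, the leucine enzyme, was at 558 units without CSF1 and 463 units with it, 1.20-fold lower. Ears2, which charges glutamate, was at 232 and 192 units, 1.21-fold lower. Both had 1 probe set above background on both arrays, and another probe set of Ears2 went the other way, from 31.2 units, below background, to 171 units. Cars2, the cysteine enzyme, was at 449 and 443 units, a log2 ratio of -0.02, with -0.11 ± 0.13 over 2 probe sets. Yars2, the tyrosine enzyme, was at 286 and 271 units, a log2 ratio of -0.08. Its other measured probe set went from 149.6 units, close to background, to 391 units, a log2 ratio of 1.38, so the probe sets of Yars2 did not give a common direction (0.65 ± 1.03).

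On the other side of 0, Wars2, the tryptophan enzyme, was at 235 units without CSF1 and 326 units with it, 1.38-fold higher, with 0.41 ± 0.09 over 2 probe sets. It was the mitochondrial member with the highest ratio and the one whose probe sets were closest to each other. Rars2, the arginine enzyme, was at 893 and 1105 units, 1.24-fold higher. Fars2, the phenylalanine enzyme, was at 719 and 886 units, 1.23-fold higher. Tars2, the threonine enzyme, was at 282 and 330 units, 1.17-fold higher. Each of these 3 rested on 1 probe set above background on both arrays, and the average of all probe sets, including those below background, was -0.02 for Fars2 and -0.17 for Tars2.

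Iars2, the isoleucine enzyme, was at 746 units without CSF1 and 857 units with it, 1.15-fold higher, and its 2 probe sets differed in sign, averaging -0.13 ± 0.46. Pars2, the proline enzyme, was at 197 and 210 units, a log2 ratio of 0.10. Aars2, Mars2 and Vars2, for alanine, methionine and valine, were not above background on either array, with 54.0 and 68.7 units, 82.7 and 45.2 units, and 41.8 and 46.2 units on the control and CSF1 arrays. No fold is given for these 3.

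Set beside each other by amino acid, the cytosolic and the mitochondrial enzyme could be compared for 13 pairs, in which Eprs appears for both glutamate and proline and Farsa stands for the cytosolic phenylalanine enzyme. The cytosolic ratio was the higher in 8 pairs and the mitochondrial one in 5, with a median difference of 0.33 on the log2 scale. The widest gaps were those of asparagine, where Nars was at 0.28 and Nars2 at -0.83, and serine, where Sars was at 0.16 and Sars2 at -0.60 (a bound). Tryptophan ran the other way, with Wars at -0.15 and Wars2 at 0.47. Threonine counts among the 8 pairs, although Tars and Tars2 were both at 0.23. Phenylalanine counts among the 5, with Farsa at 0.14 and Fars2 at 0.30, but Farsb, at 0.32, would put it on the other side. All these values are from the brightest probe sets. As described above, other probe sets of Hars2, Yars2, Ears2, Iars2, Fars2 and Tars2 gave different ratios.

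**Figure D3:**
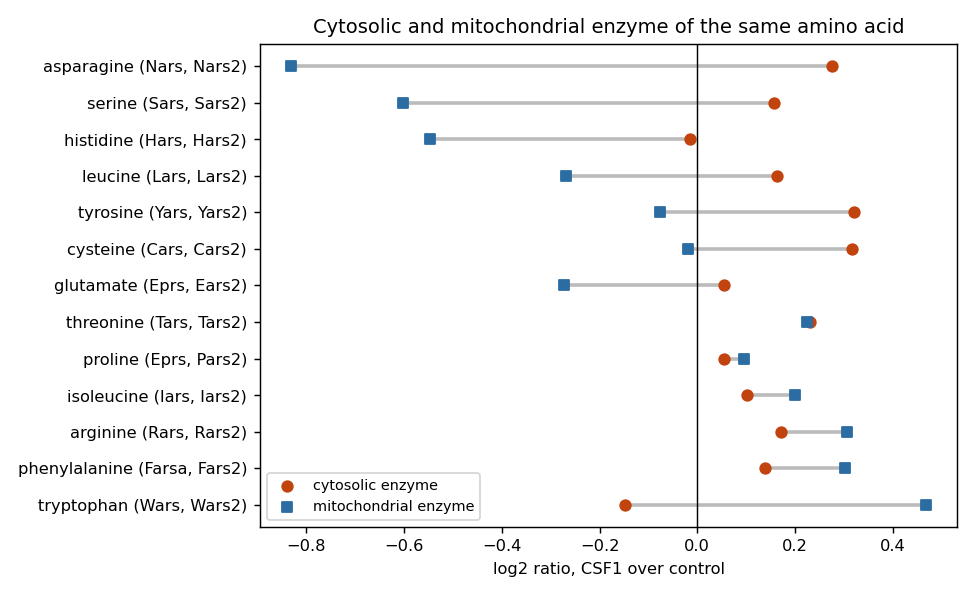
The log2 ratio of CSF1 over control for the cytosolic enzyme (orange circle) and the mitochondrial enzyme (blue square) of the same amino acid, for the 13 pairs measured on the arrays. Pairs are ordered by the difference, from tryptophan at the bottom, where the mitochondrial enzyme was higher, to asparagine at the top, and the value of Sars2 is a bound.

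Other genes of mitochondrial translation were closer together than the mitochondrial synthetases. Mitochondrial ribosomal proteins had 66 of 76 measured members above 0, a median of 0.20 and an SD over genes of 0.17. Their median control signal was 1628 units, against 419 units for the mitochondrial synthetases. A list of partners in mitochondrial translation had 10 of 12 above 0, a median of 0.14, an SD of 0.16 and a median control signal of 404 units. Its largest ratios were those of Mtfmt, which formylates the initiator tRNA, at 1.43-fold higher, the ribosome recycling factor Mrrf at 1.27-fold and the elongation factors Tsfm and Tufm at log2 ratios of 0.32 and 0.16, where the 2 probe sets of Tufm averaged 0.58 ± 0.59. The amidotransferase subunits that make the mitochondrial glutamine tRNA, named although they fall outside the rule for named genes, were at 0.11 for Gatb, 0.14 for Gatc and 0.05 for Qrsl1.

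In the cytosolic machinery, the ribosomal proteins had 7 of 45 measured members above 0 and a median of -0.13, but 26 of 45 and 0.01 after quantile normalization, 21 and -0.01 after loess correction, and 44 and 0.17 when centred on the spikes. Both lists of ribosomal proteins were made by symbol, here Rpl or Rps and a digit. The 7 therefore include Rps19bp1 at 0.49 and Rpl7l1 at 0.31, taken in by name. The elongation and termination factors had 3 of 8 above 0 and a median of -0.09. The largest absolute ratios there belonged to Eef2k, the kinase that inhibits the elongation factor eEF2, at 1.43-fold lower, the release factor Etf1 at 1.29-fold lower (0.00 ± 0.23 over 5 probe sets), Eef1a1, which carries charged tRNA to the ribosome, at 1.28-fold lower, and Eef1d at 1.11-fold lower (0.00 ± 0.22 over 2 probe sets).

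Genes that make, modify and export tRNA had 11 of 17 measured members above 0 and a median of 0.08. Trmt61a, a subunit of a tRNA methyltransferase, was below background without CSF1 and at 529 units with it, at least 3.58-fold higher. Trmt1, another tRNA methyltransferase gene, was 1.60-fold higher with 0.34 ± 0.56 over 3 probe sets, and Xpo5, an exporter of small RNAs, 1.54-fold higher with probe sets that disagreed (-0.07 ± 0.98 over 2). Wdr4, a subunit of a further tRNA methyltransferase, was at least 1.61-fold lower. RNA polymerase III, which transcribes tRNA genes, had 14 of 20 members of its list above 0 and a median of 0.08. Its subunit genes Polr3k and Polr3g were 1.64-fold and at least 1.60-fold higher, with Polr3k at -0.02 ± 0.67 over 4 probe sets, and its factor genes Gtf3c5 and Gtf3c1 were 1.58-fold and 1.53-fold lower.

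The amino acid response list had 17 of 28 measured members above 0 and a median of 0.12. In it 8 genes were higher by 1.5-fold or more, as were 5.69% of all measured genes, and 1 gene was lower by as much, as were 5.13%. Atf4 itself was at 6181 units without CSF1 and 6681 units with it, a log2 ratio of 0.11. Asns, the asparagine synthetase that makes the amino acid Nars uses, was at 1975 and 3010 units, 1.52-fold higher, with 0.68 ± 0.10 over 2 probe sets. Ddit3, which encodes the stress factor CHOP, was at 3730 and 5730 units, 1.54-fold higher. The largest ratios were those of the serine and proline pathway genes Shmt2 at 1.95-fold (0.51 ± 0.65 over 2 probe sets), Phgdh at 1.78-fold (0.53 ± 0.22 over 4) and Aldh18a1 at 1.73-fold (0.60 ± 0.31 over 3). Ddit4, an inhibitor of mTORC1 signalling, was below background with CSF1 and at least 1.68-fold lower. The 11 members below 0 also included Trib3 at a log2 ratio of -0.43 (-0.41 ± 0.03 over 2 probe sets) and Cebpg at -0.41 (-0.31 ± 0.14 over 2). Sesn2 at -0.28 and Atf3 at -0.12 were among them too.

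A list of eIF2, its kinases and other factors that control it, among them the kinase Gcn2 that uncharged tRNA activates, had 7 of 14 measured members above 0. Its median was -0.03. Eif2ak4, the kinase Gcn2, named although it falls outside the rule, was at 355 units without CSF1 and 357 units with it. Its partner Gcn1 was below background with CSF1 and at least 1.40-fold lower. The kinase gene Eif2ak3, of the endoplasmic reticulum, was 1.49-fold lower, the phosphatase subunit gene Ppp1r15b 1.36-fold lower and the exchange factor subunit gene Eif2b4 1.35-fold higher. In a list of MYC and factors of mitochondrial biogenesis, 6 of 9 were above 0. There Tfb1m, a methyltransferase of the mitochondrial ribosomal RNA, was 1.49-fold higher, Myc 1.32-fold and Nrf1 1.27-fold (0.12 ± 0.31 over 2 probe sets), while Mycn was at least 1.33-fold lower.

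**Figure D4:**
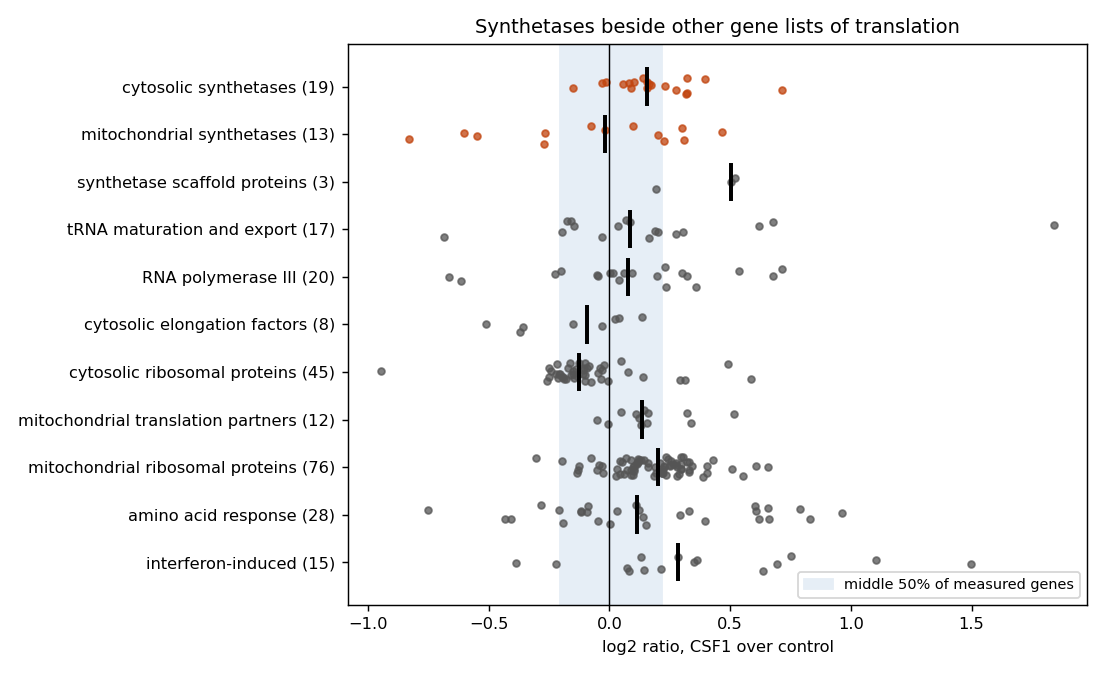
The log2 ratio of CSF1 over control for the measured genes of the synthetase groups (orange) and of other lists of translation (grey), with the number measured beside each name, the median as a black bar, and genes at background on 1 array at their bound. The medians of the cytosolic synthetases and the mitochondrial ribosomal proteins are 0.16 and 0.20, and those of the mitochondrial synthetases and cytosolic ribosomal proteins -0.02 and -0.13, the last of which was 0.01 after quantile normalization.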

How the data were processed

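The deposited intensity values of 45101 probe sets are on a linear scale and were produced with GeneSpring 6.2, per the labels' design text. How probes were summarised is not stated in those sources. Both arrays had the same 2% trimmed mean (500.0 units). Gene names came from the platform annotation, in which 34958 probe sets have 1 symbol, 932 several and 9211 none. Only the first kind was used.

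Values were moved to log2 without further scaling, and values below the background level, set at the 90th percentile over 84 genes specific to unrelated tissues (94 listed, 131 probe sets), were raised to it. The measure was the log2 ratio of CSF1 over control. A gene at background on 1 array has a bound. Probe sets ending in _s_at, _x_at or _a_at may match several transcripts, which applies to 7 of the 19 cytosolic and 4 of the 13 mitochondrial values. Members and lists were chosen with earlier results of these data known. Named genes were all members, in each list up to 4 genes by absolute ratio, Atf4, Ddit3, Asns, Myc and Csf1r. Some further marker and amino acid response genes were named to show how members of those lists differed. The steps were tested on simulated data. The alternatives tried are given in the closing section. Computation was in Python 3.11.15 with numpy 2.4.6, pandas 2.3.3, statsmodels 0.14.6 and matplotlib 3.10.9.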

Additional observations from a re-analysis of the deposited data

How the results depend on the processing

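The median ratio of the cytosolic synthetases stayed above 0 under 10 alternatives, between 0.14 and 0.45. Its difference from the mitochondrial median lay between 0.12 and 0.28, but not every alternative could move it. Centring shifts genes above background alike and left the difference at 0.18. As all cytosolic genes exceeded each background level, changing that level could not move their median. With the background at the 95th percentile or at the median of all values the difference was again 0.18. Centring on the hybridisation spikes moved the median of all measured genes to 0.28. The cytosolic median then became 0.45 (0.17 relative to all genes) and the mitochondrial median 0.28 (-0.01 relative to all genes). The mitochondrial members above 0 numbered 10, and 8 members were at least 1.5-fold higher and 0 lower. Because that centring raised the median of all measured genes, these counts cannot be set beside the shares given above. The shares of all genes under it are not given here. The mitochondrial median also changed sign, to 0.039, with no background level and with only genes above background on both arrays. With the mean of all probe sets the difference between the medians was 0.28 and 2 members were at least 1.5-fold higher. The count at least 1.5-fold lower was 1 instead of 2 after quantile normalization, with a stricter background (95th percentile), and with only genes above background on both arrays, and 3 with no background level. At a threshold of 2-fold both counts were 0, and at a log2 ratio of 0.322, 4 members were higher and 3 lower. The sign of the ratio was kept under every alternative that gave a value by 14 of the 19 cytosolic and 6 of the 13 mitochondrial members. No paired analysis was possible because each group has 1 sample. No replicate could be left out, and ratios near the background level are limited by signal.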
